A study of Mus musculus with 6 samples.

Results

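The hair follicle is wrapped and instructed by mesenchymal cells of 2 kinds, those of the dermal sheath (DS) and those of the dermal papilla (DP), and the comparison made here set both together against the dermal fibroblasts (DF) of the same skin. A gene was taken as shared when it went the same way in both follicle populations. It had to differ from DF by at least 1 on the log2 scale in DS and in DP, with all 4 follicle libraries on one side of both DF libraries and an adjusted p under 0.05 for the mean of DS and DP minus DF. Where shared genes are said below not to overlap with DF, this follows from the rule. Of 14664 genes tested, 1337 met this rule, 369 of them higher in both follicle populations and 968 lower in both.

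Cells were sorted by flow cytometry from dorsal skin of CD1 females aged 16 days after birth, an age at which back skin follicles were entering catagen. DS, DP and DF each had 2 biological replicates, which makes 6 RNA-sequencing libraries, and all 3 groups share strain, sex, age and skin region. The labels call every sample mesenchymal, name no genotype or treatment, and leave unsaid which surface markers or reporters defined the gates, so a gene below could have been part of a gate. They also leave unsaid whether animals were pooled, and p-values measure only the spread between these libraries.

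The papilla sits at the base of the follicle and signals to the overlying epithelium, while the sheath surrounds the follicle as a thin contractile layer that moves the papilla upward during catagen. Papilla and sheath cells derive from the same embryonic dermal condensate lineage, and sheath cells can replenish the papilla over hair cycles. Dermal fibroblasts make the bulk of skin matrix, chiefly type I and type III collagen with small proteoglycans and elastic fibres.

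Values are RPKM, read numbers scaled by transcript length and library depth, divided here by a median-ratio factor per library and called scaled RPKM. The factors were 1.09 and 1.12 in DS, 1.29 and 1.26 in DP and 0.632 and 0.794 in DF. The microRNA gene Mir6236 took 60.1 and 56.7% of summed RPKM in DS, 57.0 and 46.6% in DP, and 77.1 and 74.6% in DF. The sources used here give no read totals. Depth relative to the deepest library, estimated from the lowest values, was 0.39 and 0.47 in DS, 0.63 and 0.5 in DP and 0.71 and 1.0 in DF. Over the genes tested, replicate libraries had Pearson correlations of 0.934 in DS, 0.941 in DP and 0.937 in DF on the log2 scale, and libraries of different populations from 0.74 to 0.799. The first principal component, with 44.7% of the variance, set DP apart from DS and DF, and the second, with 36.4%, ordered DS, DP and DF.

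Marker lists were set beside the labels. Summed over 13 sheath markers, levels were 4401 and 4562 scaled RPKM in DS, 86.05 and 100.3 in DP and 174 and 174.1 in DF, and over 16 papilla markers they were 291.5 and 303.9 in DS, 5700 and 6679 in DP and 452.6 and 496.2 in DF. The smooth muscle actin gene Acta2 had 902 and 984 scaled RPKM in DS, 2.97 and 2.82 in DP and 3.28 and 3.02 in DF, and Crabp1, a retinoic acid binding protein used as a papilla marker, had 0.359 and 1.18 in DS, 1822 and 2123 in DP and 49.9 and 77.7 in DF. Over 19 markers of reticular and fascial fibroblasts the sums were 3985 and 3733 in DS, 266 and 263 in DP and 10907 and 9020 in DF. Dcn alone took 5659 and 4696 of the DF sums. Each population was thus highest for its own list by the sum, although single members differed, such as Vcan of the papilla list, which was highest in DF. The lists were chosen with results of these data known, and the gates are not given, so this is no independent check of the labels. In sorted bulk RNA, fewer cells of a type and less RNA per cell cannot be told apart.

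Higher in both populations were 2.52% of the genes tested, and lower in both were 6.6%. Counts of called members in the lists below are to be read beside these shares. For comparison, all 4 follicle libraries lay above both DF libraries for 2282 genes (15.6%) and below both for 2635 genes (18%). Taken singly, the mean of DS and DP was called higher than DF for 6.83% of genes and lower for 10.1%, DS for 8.01 and 9.94%, and DP for 9.34 and 13%. The DS minus DF and DP minus DF differences share the DF libraries and are not independent of each other. Of the higher genes 346 were protein coding and 14 long noncoding, and of the lower genes 866 and 53. The lower set held the larger differences. The smaller of the 2 differences reached 3 on the log2 scale for 183 lower and 18 higher genes, and its median was 1.67 for lower and 1.46 for higher genes. In 122 lower genes DF averaged at least 5 scaled RPKM while every follicle library was under 1, whereas 10 higher genes averaged at least 5 in DS and in DP with both DF libraries under 1. These counts are not set alike, as the higher one needs that level in both DS and DP and the lower one in DF only. Just inside the size limit were Arid5b, with DS minus DF of 1.0009 on the log2 scale, and Fam167a, with a DS minus DF of -1.0012. Just outside it were Itprid2, at 0.9977, and Cog6, at -0.9988.

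The balance of higher and lower genes depended on how the libraries were put on a common scale. With median-ratio scaling 27.6% of shared genes were higher, and the median gene differed by 0.03 on the log2 scale between the follicle mean and DF. With RPKM as deposited 1554 genes were higher and 519 lower, so 75.0% were higher, and the median gene was displaced by 0.65. With libraries brought to the same sum without small RNA genes, 785 were higher and 662 lower, 54.3% were higher, and the median gene was displaced by 0.42. All 369 higher genes kept that call as deposited, and 519 of the 968 lower genes did. Leaving out the factors raises follicle values relative to DF, so higher calls could hardly be lost and lower calls could. The kept shares therefore do not set the higher calls above the lower ones. Differences below are relative to the median gene under median-ratio scaling.

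**Figure D1:**
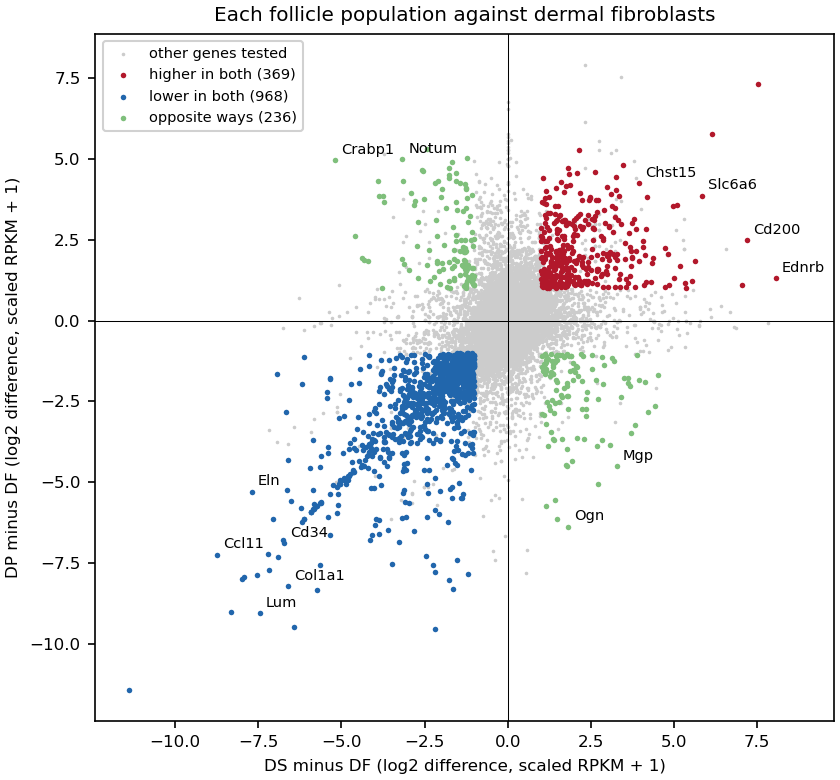
Each point is 1 of the 14664 genes tested, with the log2 difference DS minus DF on the horizontal axis and DP minus DF on the vertical axis, both against the same DF libraries. Red marks the 369 genes higher in both, blue the 968 lower in both and green the 236 that went opposite ways, and the lower set extends to larger differences than the higher set.

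Genes are ranked here by the smaller of their DS minus DF and DP minus DF differences, leaving out small RNA genes, unnamed genes and those averaging under 5 scaled RPKM on their higher side. Before that limit the largest smaller differences, 7.3 among higher and 11.4 among lower genes, belonged to small RNA genes, Snord2 and Mir6546. Among the ranked genes higher in both follicle populations, Chst15, Slc6a6, Nav2 and Corin came first. Slc6a6, the taurine transporter, had 1004 and 1034 scaled RPKM in DS, 288 and 232 in DP and 15.5 and 18.4 in DF. The mean of DS and DP exceeded DF by 4.84 ± 0.13 on the log2 scale (SE; limma adjusted p = 5.83e-05), and DS was also above DP by 1.98. Chst15, a sulfotransferase that adds a second sulfate to chondroitin sulfate, had 35.9 and 33.7 in DS, 43.6 and 41.6 in DP and 0.871 and 1.85 in DF. Its 4 follicle libraries lay within a narrow band far above both DF libraries, with a difference of 4.10 ± 0.20 (SE; limma adjusted p = 0.00017) and no call between DS and DP. Corin, the transmembrane protease that activates atrial natriuretic peptide and a known papilla gene that shifts coat pigment, had 485 and 464 in DS, 142 and 193 in DP and 14 and 12.3 in DF. It was thus highest in DS, intermediate in DP and lowest in DF, with no overlap between populations, and the follicle mean was 4.32 ± 0.15 above DF (SE; limma adjusted p = 9.51e-05).

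Of further ranked genes, some reached nearly the same level in sheath and papilla and others were higher in the papilla. Nav2, a microtubule-associated navigator protein, had 172 and 171 scaled RPKM in DS, 126 and 143 in DP and 6.45 and 11.3 in DF. Myo10, the unconventional myosin of filopodia, had 133 and 127 in DS, 144 and 111 in DP and 13.4 and 12.4 in DF, and Tns3, a tensin of focal adhesions, had 189 and 174 in DS, 162 and 151 in DP and 16.9 and 17.9 in DF. The DS minus DP differences of these 3 genes, 0.35 for Nav2, 0.04 for Myo10 and 0.21 for Tns3, were not called. Etv5, an ETS factor that responds to FGF signalling, had 25.5 and 31.8 in DS, 37.1 and 31 in DP and 1.79 and 2.59 in DF. Nr4a3, an orphan nuclear receptor, had 35.2 and 44.5 in DS, 57.9 and 54.8 in DP and 3.9 and 2.29 in DF. In both genes the lowest follicle library was several times the higher DF library. Pde5a, the phosphodiesterase that degrades cyclic GMP, had 35.8 and 25.1 in DS, 51.5 and 32.2 in DP and 2.48 and 2.65 in DF. Rasgrp2, an activator of the small GTPase Rap1, had 48.3 and 52.1 in DS, 82.8 and 94 in DP and 4.78 and 5.09 in DF. F5, coagulation factor V, had 52.6 and 43.5 in DS, 69.7 and 96.4 in DP and 3.02 and 5.48 in DF. In these 3 genes DP averaged above DS and both were far above DF. Cspg4, the NG2 proteoglycan known from pericytes, had 39.1 and 44.8 in DS, 93.5 and 97.9 in DP and 2.7 and 4.39 in DF. The DS minus DP difference of Cspg4, -1.17 on the log2 scale, was called. Of the 11 tested members of the pericyte and vascular smooth muscle list it was the only one called higher in both, and 4 were called lower, among them Ndufa4l2 with 31.2 and 31.6 in DS, 22.4 and 40.5 in DP and 789.5 and 588 in DF. H4c17, a histone H4 gene with near-identical copies whose reads may be shared among them, had 9.91 and 10.1 in DS and 26.9 and 26.9 in DP and was listed at 0 in both DF libraries. Its DS minus DP difference of -1.345 was also called.

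**Figure D2:**
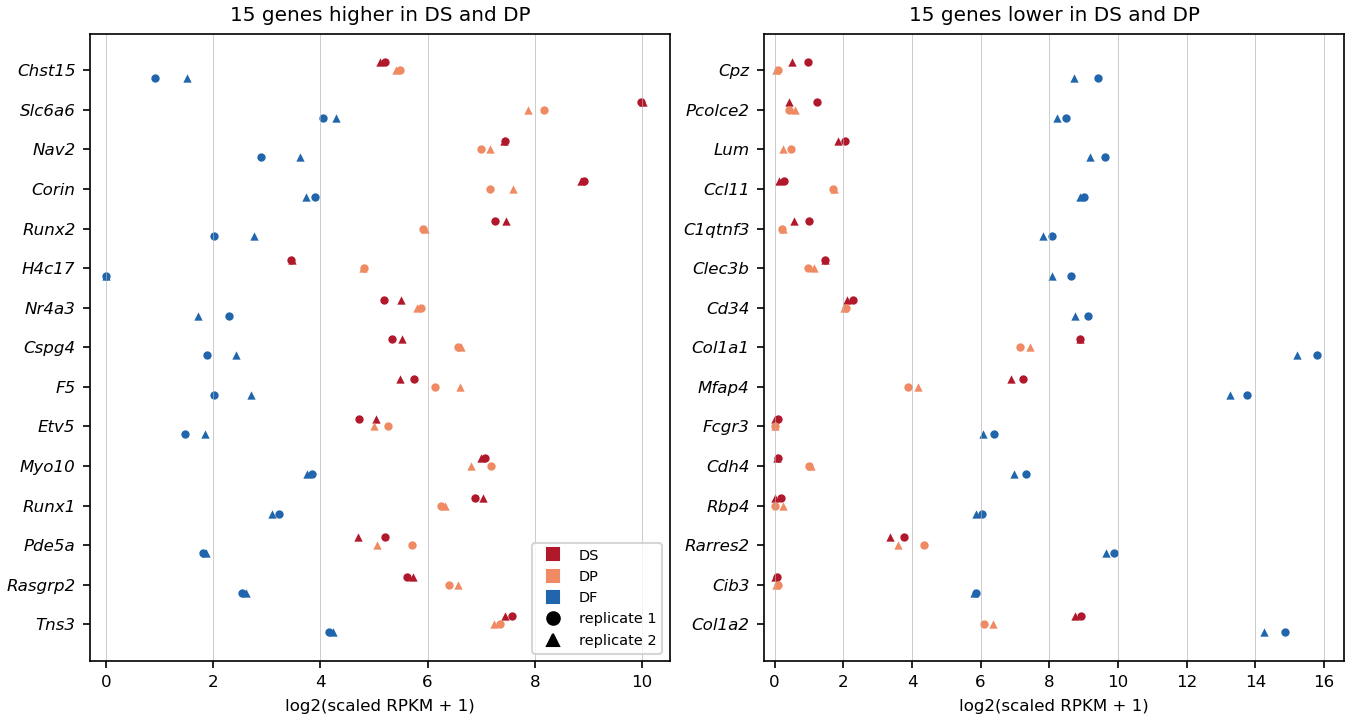
Rows are, in each direction, the 15 shared genes whose smaller difference from DF was largest, leaving out small RNA genes, unnamed genes and those averaging under 5 scaled RPKM on their higher side, and points give log2(scaled RPKM + 1) in each library (circle replicate 1, triangle replicate 2), with DS drawn above DP and DP above DF in each row. In every row the 4 follicle points lie on one side of both DF points, as the rule requires.

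The 3 Runx transcription factors were all higher in both follicle populations, and they divided between sheath and papilla. These factors bind DNA with the partner Cbfb, and Runx2 is best known from bone, Runx1 from blood and hair growth, and Runx3 from sensory neurons and T cells. Runx2 had 153 and 175 scaled RPKM in DS, 59.3 and 60.8 in DP and 3.05 and 5.79 in DF, and the follicle mean exceeded DF by 4.26 ± 0.22 on the log2 scale (SE; limma adjusted p = 0.000219). Runx1 had 117 and 129.6 in DS, 75.4 and 78.7 in DP and 8.36 and 7.59 in DF, with a difference of 3.46 ± 0.11 (SE; limma adjusted p = 7.54e-05). Runx3 had 17.5 and 18.5 in DS, 72 and 71.9 in DP and 1.84 and 2.3 in DF, with a difference of 3.60 ± 0.13 (SE; limma adjusted p = 9.6e-05). DS minus DP was 1.43 for Runx2 (limma adjusted p = 0.0105) and -1.94 for Runx3 (limma adjusted p = 0.000559), while the Runx1 value of 0.67 was under the size limit. By level, Runx2 and Runx1 were highest in DS and Runx3 in DP, and all 3 were lowest in DF without overlap.

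The promoters of these 3 genes hold a sequence feature that the selection did not use. In the RefSeq promoter table (GRCm38.p6, 250 bases before to 50 after the start), the Runx core TGTGGT, searched on both strands, occurred in 1277 of 10661 promoters of tested protein-coding genes (12.0%). At least 2 cores were found in 93 promoters (0.872%), and a pair whose starts were 8 bases apart in 3 promoters (0.0281%), which were those of Runx1, Runx2 and Runx3. The spacing was noticed after the hits were seen, and the match is a description of sequence, not of binding. The stretches are shown because they carry this pair, with the core in capitals as ACCACA, its reverse complement, at chr16:92826025-92826054 on the minus strand for Runx1, chr17:44814583-44814612 on the minus strand for Runx2 and chr4:135120503-135120532 on the plus strand for Runx3. The pair follows the annotated start in Runx1 and Runx2 and precedes it in Runx3.
Runx1: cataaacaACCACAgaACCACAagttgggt
Runx2: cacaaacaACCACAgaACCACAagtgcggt
Runx3: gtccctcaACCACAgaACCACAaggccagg

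Of 41 tested members of the Sox, Fox, T-box, Runx and related families, 6 were higher and 7 lower in both, with a list median of 0.19. Sox4, a Sox factor of progenitor cells, had 47.6 and 61.6 scaled RPKM in DS, 115 and 103 in DP and 7.37 and 7.38 in DF. Tbx18, a T-box factor whose promoter has been used to mark the follicle's dermal lineage, was low throughout, with 10.1 and 11.4 in DS, 3.71 and 3.99 in DP and 1.6 and 0.927 in DF. Its call rests on DF replicate 2, since without it the smaller difference fell under the limit although the follicle mean was still 1.54 above DF. Among the lower members, Nfib, a nuclear factor I protein, had 3.54 and 3.25 in DS, 2.8 and 2.24 in DP and 56.1 and 50.9 in DF. Osr2, an odd-skipped factor, had 26.8 and 31.2 in DS, 1.48 and 0.375 in DP and 336 and 334 in DF, so that DS lay between DP and DF. Among 31 homeobox genes 3 were higher and 4 lower. Alx4, a factor of cranial and limb mesenchyme, had 30.8 and 30.1 in DS, 33 and 43.2 in DP and 5.02 and 3.81 in DF. Tshz2 had 21 and 18.4 in DS, 58.4 and 51.4 in DP and 5.58 and 5.33 in DF. On the lower side were Irx5, with 0.159 and 0.502 in DS, 0.615 and 0.692 in DP and 7.57 and 7.76 in DF, and Meox2, with 1.12 and 0.531 in DS, 0.888 and 1.29 in DP and 4.96 and 9.23 in DF, and the Iroquois genes Irx3 and Irx2 moved the same way, although as deposited their calls were lost, and that of Irx2 also without DP replicate 2 or DF replicate 1.

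The list of 36 follicle mesenchyme markers, of which 35 were tested, had 11 members higher and 1 lower in both and 9 that went opposite ways, with a median follicle difference of 1.69, against 0.03 over all genes tested. The list was written with results of these data known, so its direction is no independent evidence. Cd200, an inhibitory ligand for myeloid cells, had 684 and 479.9 scaled RPKM in DS, 23.7 and 18.3 in DP and 3.59 and 2.31 in DF. Ednrb, the endothelin B receptor, had 1393 and 1545 in DS, 11.3 and 14.2 in DP and 4.22 and 4.88 in DF. For both, all 4 follicle libraries exceeded DF and the sheath lay far above the papilla. DP minus DF was 2.49 for Cd200 and 1.31 for Ednrb, and DS minus DP was 4.72 for Cd200 and 6.74 for Ednrb. Of 8 tested endothelin system genes Ednrb was the higher one and the peptidase gene Phex the lower one. Other markers met the size limit in 1 population alone. Mmp11, a metalloproteinase, had 2226 and 2817 in DS, 103 and 107 in DP and 51.5 and 74.4 in DF, so DP minus DF was 0.75 and below the size limit. Col11a1, a fibrillar collagen chain, had 429 and 337 in DS, 6.13 and 4.32 in DP and 2.86 and 4.32 in DF, with DP minus DF of 0.44. As deposited, Mmp11, Col11a1 and Itga8 all met the rule. The integrin genes parted, Itga8 with 70.9 and 57.8 in DS, 3.21 and 5.22 in DP and 2.05 and 3.64 in DF and Itga9 with 14.3 and 13.7 in DS, 105 and 119 in DP and 32.6 and 33.9 in DF. The separate lists of 16 papilla and 13 sheath markers held 5 and 2 genes higher in both, and 1 lower gene each. Vcan, the hyaluronan-binding proteoglycan versican that is known from the growing papilla, was lower in both, with 37.7 and 40.7 in DS, 108 and 112 in DP and 244 and 207 in DF, and its call was lost as deposited and without DP replicate 1 or DF replicate 1.

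Hedgehog signal from the follicle epithelium reaches the mesenchyme, where Gli1 and the receptor Ptch1 are its standard target genes. Gli1 had 24.7 and 24.1 scaled RPKM in DS, 41.4 and 37.9 in DP and 1.83 and 4.6 in DF, and the follicle mean was 3.01 ± 0.28 above DF on the log2 scale (SE; limma adjusted p = 0.00122). Ptch1 had 21.6 and 29 in DS, 43.5 and 58.7 in DP and 6.9 and 7.95 in DF, a difference of 2.12 ± 0.19 (SE; limma adjusted p = 0.0011). For both genes every follicle library lay above both DF libraries, and DP was at the top. Of the 15 pathway genes tested, these 2 were higher and 3 lower in both, and 3 went opposite ways, with medians of -0.07 for DS minus DF and 1.13 for DP minus DF. The lower ones were Cdon, a coreceptor, with 6.86 and 7.15 in DS, 0.359 and 0.18 in DP and 35.9 and 35.7 in DF, Disp1, which releases the ligand, and Scube2, which carries it. Disp1 and Scube2 lost their calls as deposited, and Disp1 also without DP replicate 1 or DF replicate 2. The pathway's target and inhibitor Hhip was not shared, with 0.878 and 0.0731 in DS, 117 and 136 in DP and 7.73 and 10.1 in DF.

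Of 35 FGF, PDGF and IGF genes 7 were higher and 7 lower, with a median of 0.33. Over all genes tested 2.52% were higher and 6.6% lower. Fgf10 had 23.1 and 21.6 scaled RPKM in DS, 34.6 and 31.5 in DP and 3.99 and 5 in DF. Fgf18 had 37.8 and 28.4 in DS, 164 and 209.9 in DP and 4.5 and 10.4 in DF. Both are ligands, highest in DP, intermediate in DS and lowest in DF without overlap. Spry1, a feedback inhibitor of FGF receptors, had 48.8 and 56 in DS, 89 and 138 in DP and 12.3 and 13.8 in DF. Fgfr4 was on the other side, with 0.154 and 0.0253 in DS, 1.45 and 1.96 in DP and 50 and 40.4 in DF. Growth factor binding proteins split as well. Igfbp4 had 327 and 301 in DS, 134 and 118 in DP and 14.8 and 19 in DF, and the follicle mean exceeded DF by 3.49 ± 0.14 (SE; limma adjusted p = 0.000118). Igfbp5 had 46.8 and 52.4 in DS, 14.8 and 24.4 in DP and 495 and 383 in DF and Igfbp6 had 21.8 and 12.3 in DS, 13.9 and 18 in DP and 212 and 172 in DF, both lower in the follicle. The ligand Igf1 had 11.6 and 12.3 in DS, 7.95 and 9.18 in DP and 109 and 104 in DF, roughly level across the 4 follicle libraries and far below both DF libraries.

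Secreted Wnt inhibitors were called in the higher direction in 3 of 17 tested genes, and 4 more went opposite ways in DS and DP. The list median was -0.45 for DS minus DF and 1.93 for DP minus DF. Wif1, which binds Wnt ligands, had 52.4 and 47.5 scaled RPKM in DS, 344 and 416 in DP and 12.2 and 15.1 in DF. Sfrp2, a secreted Frizzled-related protein also listed among reticular markers, had 9.28 and 8.89 in DS, 11.7 and 14.1 in DP and 1.16 and 3.54 in DF. The third was Igfbp4, which can also bind Wnt receptors. Ligands and receptors of the pathway gave 5 calls among 32 tested genes, all lower in both. Wnt5a, a ligand of the noncanonical branch, had 1.98 and 1.67 in DS, 8.59 and 7.04 in DP and 30.7 and 19.1 in DF. Ror1, a receptor of that branch, had 1.02 and 0.96 in DS, 0.15 and 0.0434 in DP and 7.05 and 6.45 in DF. Lgr5, an R-spondin receptor, had 4.5 and 3.13 in DS, 2.7 and 2.2 in DP and 49.1 and 29.7 in DF. By the rule, no follicle library of these 3 genes reached a DF library. Wnt5a and its relative Wnt5b lost their calls as deposited. Of 13 nuclear factors and targets of the pathway 1 was called, which was Lgr5 again.

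BMP and TGF-beta family genes moved both ways. Of 15 ligands 2 were higher and 2 lower. Bmp3, a BMP that can oppose other BMPs, had 39 and 36.8 scaled RPKM in DS, 229.7 and 277 in DP and 9.41 and 10.4 in DF. Tgfb1 had 18.2 and 29.7 in DS, 45.7 and 63.4 in DP and 6.39 and 5.24 in DF. Tgfb2 went the other way, with 11.6 and 12.8 in DS, 60.1 and 59.4 in DP and 185 and 185 in DF, although as deposited its call was lost. Of 15 antagonists 1 was higher and 5 lower, with a median of -1.15. Nog, the BMP antagonist noggin that permits hair growth, had 19.8 and 21.7 in DS, 2.99 and 6.13 in DP and 0.566 and 0.796 in DF. Grem1, another BMP antagonist, had 0.274 and 0.299 in DS, 0.593 and 0.511 in DP and 16.8 and 22.7 in DF. Noggin was thus near or under 1 scaled RPKM in dermal fibroblasts and gremlin 1 under 1 in every follicle library. Among 22 receptors and effectors Id1, a BMP target, was called higher and the coreceptor Tgfbr3 lower, the second call being lost as deposited. Id1 had 15.6 and 36.2 in DS, 67.4 and 66.9 in DP and 13 and 9.86 in DF, and it lost its call when DS replicate 2, either DP replicate or either DF replicate was left out. Of 17 Notch pathway genes 4 were called, all higher in both. Jag1, a Notch ligand, had 18.2 and 15.5 in DS, 12.5 and 13.6 in DP and 4.2 and 4.97 in DF. The target Hey1 had 18.8 and 26.8 in DS, 19.7 and 22.2 in DP and 6.05 and 7.43 in DF, and the target Hey2 had 3.24 and 3.38 in DS, 3.83 and 4.49 in DP and 0.631 and 0.319 in DF. Notch4 had 1.53 and 4.49 in DS, 2.76 and 5.23 in DP and 0.255 and 0.572 in DF, a wide spread, and lost its call without DS replicate 2, DP replicate 2 or either DF replicate.

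Of 34 tested smooth muscle genes 7 were higher and 2 lower in both, with a median of 1.3 for the follicle mean. Separately the medians were 1.91 for DS minus DF and 0.17 for DP minus DF, so in the papilla the list lay close to the dermal level. Tpm2, a tropomyosin, had 439.8 and 387 scaled RPKM in DS, 31.9 and 39.8 in DP and 9.47 and 11.3 in DF. Cnn2, calponin 2, had 129 and 136 in DS, 30.3 and 30.2 in DP and 6.37 and 7.01 in DF. Actn1, the actin crosslinker alpha-actinin 1, had 119 and 115 in DS, 15.9 and 24.5 in DP and 4.39 and 2.64 in DF. All 3 were highest in DS and intermediate in DP, without overlap with DF. Vim, the intermediate filament vimentin, had 1932 and 2105 in DS, 1883 and 2147 in DP and 823 and 728 in DF, with DS minus DP of 0.00. Of 32 integrin and focal adhesion genes 4 were higher and 1 lower, with a median of 0.36. Itga1, a collagen and laminin receptor subunit, had 36.7 and 32.2 in DS, 59.9 and 44.4 in DP and 5.65 and 5.64 in DF. Fermt2, the integrin activator kindlin-2, had 123 and 94.7 in DS, 192 and 222 in DP and 36.8 and 29.2 in DF. Tln2, a talin, had 48.4 and 54.8 in DS, 47.6 and 40.1 in DP and 14.6 and 11.8 in DF. Itga2, another collagen receptor subunit, was the lower one, with 0.288 and 0.453 in DS, 0.492 and 0.315 in DP and 4.61 and 3.18 in DF.

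Collagen genes of the fibrous dermal matrix were among the genes lower in both follicle populations. Col1a1, which encodes the main chain of type I collagen, had 477 and 471 scaled RPKM in DS, 139.5 and 174 in DP and 56260 and 37801 in DF. The follicle mean minus DF was -7.40 ± 0.20 on the log2 scale (SE; limma adjusted p = 5.83e-05). Col1a2, its partner chain, had 482 and 430.5 in DS, 67.1 and 80.8 in DP and 29839 and 19430 in DF. Col3a1, the type III chain, had 315 and 276 in DS, 768 and 779 in DP and 33783 and 25288 in DF, a difference of -5.93 ± 0.16 (SE; limma adjusted p = 5.83e-05). Type I chains were thus lowest in the papilla, whereas the type III chain was lowest in the sheath. Of 10 tested fibrillar collagen chains 5 were lower in both, the other 2 being Col5a1 and Col5a2, and 2 were higher. Col27a1 had 24.5 and 21.8 in DS, 12.7 and 13 in DP and 2.3 and 2.26 in DF. Col24a1 had 7.18 and 7.09 in DS, 4.58 and 5.7 in DP and 0.546 and 0.969 in DF. The 2 chains that rose were at far lower levels than those of types I and III. Of 19 non-fibrillar chains 7 were called, all lower, with a median of -0.69 that became 0.05 as deposited. Col14a1, a collagen on fibril surfaces, had 11.5 and 12.5 in DS, 1.91 and 1.82 in DP and 251 and 162 in DF.

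Genes that modify and crosslink collagen were lower in the follicle along with it. Of 27 tested, 14 were lower and 1 higher in both, with a median of -1.86, and 10 were lower as deposited. Pcolce2, an enhancer of procollagen cleavage, had 1.35 and 0.326 scaled RPKM in DS, 0.328 and 0.523 in DP and 359 and 297 in DF. P4ha2, a prolyl hydroxylase subunit, had 5.75 and 6.71 in DS, 25.7 and 14.7 in DP and 342 and 269.5 in DF. Adamts2, the procollagen N-proteinase, had 28.4 and 21.6 in DS, 13.3 and 12.9 in DP and 362 and 282 in DF. By the rule, none of these overlapped between follicle and DF. Creb3l1, a transcription factor that drives collagen secretion, had 56.2 and 52.1 in DS, 4.5 and 3.05 in DP and 660.2 and 433 in DF. Plod2, a lysyl hydroxylase, was the exception, with 21.8 and 15.3 in DS, 124 and 114 in DP and 8.23 and 8.78 in DF, its DS level nearer to DF than to DP, and its call was lost without DS replicate 1 or DF replicate 1.

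Of 17 tested genes of elastic fibres and microfibrils 8 were called, all lower in both, with medians of -1.92 for DS minus DF and -2.7 for DP minus DF. Of 12 small proteoglycans 5 were called, all lower in both, and 3 went opposite ways, with medians of -0.43 for DS minus DF and -4.41 for DP minus DF. Lum, the collagen-binding proteoglycan lumican, had 3.17 and 2.57 scaled RPKM in DS, 0.394 and 0.185 in DP and 789.9 and 584 in DF, a difference of -8.26 ± 0.18 (SE; limma adjusted p = 5.29e-05). Dcn, decorin, had 1073 and 1213 in DS, 4.68 and 7.43 in DP and 5659 and 4696 in DF. DS thus lay much nearer to DF than DP did, with DS minus DP of 7.37. Eln, elastin, had 14.9 and 9.24 in DS, 61.5 and 72.4 in DP and 3081 and 2261 in DF. Mfap4, a microfibril protein, had 149.7 and 116 in DS, 13.6 and 17 in DP and 13767 and 9710 in DF. Fbn1, fibrillin 1, had 77.5 and 75.3 in DS, 37.6 and 37.7 in DP and 792 and 533 in DF. For these 3 genes both DF libraries were several times the highest follicle library. Of 27 matricellular and hyaluronan genes 9 were lower and 1 higher. Sparc, a collagen-binding matricellular protein, had 3634 and 3408 in DS, 408 and 471 in DP and 34886 and 24843 in DF. Fn1, fibronectin, had 201 and 150.2 in DS, 33.7 and 21.2 in DP and 1534 and 1227 in DF. Has2, a hyaluronan synthase, had 0.108 and 0.0532 in DS, 0.104 and 0.0295 in DP and 13.2 and 13.4 in DF. Tnxb, tenascin X, had 0.81 and 0.845 in DS, 2.73 and 2.37 in DP and 183 and 152 in DF. Has2 was under 1 scaled RPKM in all 4 follicle libraries. Cd44, the hyaluronan receptor, was the higher one, with 68.1 and 83.8 in DS, 72.9 and 63.1 in DP and 22.8 and 19.8 in DF.

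Proteases and their inhibitors were lower in 11 of 33 and higher in 2 of 33 tested genes. Mmp27 had 2.82 and 3.08 scaled RPKM in DS, 0.089 and 0.0408 in DP and 199 and 196 in DF. Htra3, a serine protease, had 22.3 and 32 in DS, 22 and 33.2 in DP and 268 and 238 in DF. Serpine2, an inhibitor of thrombin and plasminogen activators, was on the higher side, with 57.4 and 84.9 in DS, 581 and 653 in DP and 11.7 and 19.5 in DF. Cpz, a carboxypeptidase with a Frizzled-like domain, had 0.963 and 0.435 in DS, 0.0771 and 0.0335 in DP and 687 and 416 in DF, and the follicle mean minus DF was -8.65 ± 0.26 on the log2 scale (SE; limma adjusted p = 6.53e-05). All 4 follicle libraries of Cpz were under 1 scaled RPKM. Basement membrane genes were mixed, with 3 of 24 higher and 4 lower and a median of -0.04. Lamc3, a laminin chain, had 24.3 and 37.6 in DS, 163 and 150.4 in DP and 6.42 and 9.02 in DF. Agrn, agrin, had 19.4 and 21.3 in DS, 109 and 124 in DP and 7.54 and 10 in DF. Hspg2, perlecan, had 23.9 and 30.6 in DS, 28.9 and 41 in DP and 148 and 82.9 in DF. Agrn lost its call without DF replicate 1, and Hspg2 lost its call as deposited.

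Fibroblast surface and secreted markers of the deep dermis and fascia were lower in the follicle for 13 of 19 tested genes and higher for 1, Sfrp2. Another 2 went opposite ways, among them Mgp, which was higher in DS and lower in DP than DF. The list median was -3.38, with -1.98 for DS minus DF and -5.15 for DP minus DF. Mfap5 had 266 and 206 scaled RPKM in DS, 1.08 and 1.87 in DP and 281 and 218 in DF. Cd34, a sialomucin of fibroblasts, endothelium and epithelial stem cells, had 3.88 and 3.34 scaled RPKM in DS, 3.23 and 3.02 in DP and 553 and 424 in DF. Clec3b, tetranectin, had 1.75 and 1.77 in DS, 0.983 and 1.2 in DP and 396 and 271 in DF. In both genes the follicle libraries were close together and far below DF. Of 33 cadherins and other adhesion molecules 4 were lower and 1 higher. Cdh4, a classical cadherin, had 0.0743 and 0.0491 in DS, 1.01 and 1.07 in DP and 159.9 and 125 in DF. Cadm3, an adhesion molecule of the immunoglobulin family, had 10.7 and 14 in DS, 3.64 and 5.66 in DP and 203 and 169 in DF. Axon guidance genes gave 6 lower and 1 higher of 44, with Sema3b, a semaphorin, at 7.28 and 9.88 in DS, 0.462 and 0.851 in DP and 188 and 136 in DF and its coreceptor family member Nrp1 at 1.34 and 0.496 in DS, 0.791 and 0.58 in DP and 14.8 and 13.2 in DF. The higher one, the Eph receptor Epha4, had 37 and 27.6 in DS, 28.4 and 71.5 in DP and 7.71 and 7.16 in DF and lost its call without either DF replicate. Of 13 papillary fibroblast markers 3 were lower and 1 higher, and 4 went opposite ways in DS and DP. Among the lower ones Pdpn, podoplanin, had 1.72 and 0.821 in DS, 0.203 and 0.112 in DP and 39.3 and 25.3 in DF. Of 10 pan-fibroblast markers 5 were lower and 1, Vim, higher. Dpp4, a peptidase used to mark papillary fibroblasts, was not shared, with 0.275 and 0.338 in DS, 177 and 149 in DP and 98.6 and 103 in DF. Pdgfra, the PDGF receptor general to fibroblasts, was not shared either, with 542 and 529 in DS, 94.5 and 89.4 in DP and 149 and 159 in DF.

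Retinoid genes gave 4 calls among 17 tested, all lower in both. The list as a whole was not lower, with a median of -0.09 and 1 member that went opposite ways. As deposited 2 members were higher and 4 lower. Rbp4, the carrier of retinol, had 0.135 and 0 scaled RPKM in DS, 0 and 0.185 in DP and 65 and 57 in DF, where values of 0 are as listed. Aldh1a1, which makes retinoic acid, had 0.0482 and 0 in DS, 0.0254 and 0.201 in DP and 37.3 and 29.3 in DF. Rarb, a retinoic acid receptor and target gene, had 0.935 and 0.0888 in DS, 0.363 and 1.84 in DP and 16.7 and 19.5 in DF. Rarres2, which encodes the chemoattractant chemerin, had 12.6 and 9.2 in DS, 19.5 and 11.1 in DP and 942 and 808 in DF. By the rule, none of these 4 genes overlapped between follicle and DF libraries. Rbp4 and Aldh1a1 passed the RPKM filter through DF alone, so they could only be called lower.

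Chemokines and cytokine receptors were lower in 9 and higher in 3 of 29 tested genes. Ccl11, the eosinophil attractant eotaxin, had 0.209 and 0.0858 scaled RPKM in DS, 2.25 and 2.32 in DP and 516 and 469.6 in DF, and the follicle mean minus DF was -7.99 ± 0.14 on the log2 scale (SE; limma adjusted p = 3.67e-05). Ccl8 had 0.642 and 0.802 in DS, 0.164 and 0 in DP and 63.8 and 79.9 in DF. Ccl2, the monocyte attractant, had 0 and 0 in DS, 0.317 and 0.274 in DP and 14.1 and 12.5 in DF. Among the higher genes, Cxcl14 had 28 and 31.3 in DS, 41.6 and 64.6 in DP and 4.6 and 5.65 in DF and the receptor Cxcr4 had 28.3 and 16.7 in DS, 20.1 and 18.4 in DP and 2.39 and 2.2 in DF. Of 18 complement genes 3 were called in each direction, against 2.52% higher and 6.6% lower over all genes tested. Among the higher ones Cfd was low, with 1.4 and 1.27 in DS, 2.26 and 0.887 in DP and 0.146 and 0.0819 in DF. Its call was lost when either DS replicate, DP replicate 1 or either DF replicate was left out. C3, the central component, had 0 and 0.168 in DS, 0.848 and 0.606 in DP and 33.7 and 19.1 in DF. Masp1, a lectin pathway protease, had 154 and 148 in DS, 359.8 and 451 in DP and 44.2 and 50 in DF. C1qtnf3, a secreted C1q-like protein, had 0.996 and 0.477 in DS, 0.153 and 0.197 in DP and 268 and 226 in DF.

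Leukocyte markers moved with the lower set. Summed over 24 markers they were 29.3 and 16.8 scaled RPKM in DS, 16.9 and 23.6 in DP and 133 and 129 in DF, with 16 members under 1 in both DS libraries, 17 in both DP libraries and 10 in both DF libraries. Of 14 tested, 9 were called, all lower in both, among them C1qc with 0.528 and 0.868 in DS, 0 and 0.294 in DP and 11.2 and 14.2 in DF and Pf4 with 2.59 and 0 in DS, 0 and 0.528 in DP and 45.7 and 19.2 in DF. C1qc, C1qa and Mrc1 passed the filter of 1 RPKM in at least 2 libraries through DF alone. Such genes could only be called lower, so the direction of these calls was partly set by the filter. The Pf4 call was lost without DF replicate 1. The pan-leukocyte gene Ptprc had 0.0157 and 0.0322 in DS, 0.12 and 1.11 in DP and 0.453 and 0.754 in DF, and Cd3e of T cells was under 1 in every library. Fcgr3, an Fc receptor of myeloid and natural killer cells, had 0.0829 and 0 in DS, 0 and 0 in DP and 83.3 and 66.4 in DF. The part of leukocyte RNA in the lower values of Fcgr3, Ccl8, Ccl2 and C3 was not tested. Of 8 tested pigment cell markers 4 were lower in both and 1 went opposite ways. The list of 10 summed to 53.5 and 61.5 in DS, 21.3 and 22.6 in DP and 53.1 and 65 in DF. Mitf, its largest member in DF, had 50.8 and 56.9 in DS, 12 and 10.9 in DP and 27.6 and 24.3 in DF. Dct, a melanin enzyme, had 0.271 and 0.149 in DS, 0.321 and 0.261 in DP and 8.11 and 13.1 in DF, and Pmel, the melanosome fibril protein, had 0.397 and 0.409 in DS, 0.558 and 0.0341 in DP and 5.62 and 6.87 in DF. Both genes also passed the filter through DF alone. Lists of further cell types were short, with 1 lower of 11 endothelial, 1 lower of 9 Schwann and nerve, 1 higher and 1 lower of 5 adipocyte, 2 lower of 3 skeletal muscle and 1 lower of 8 arrector pili markers. Over all genes tested 2.52% were higher and 6.6% lower. Des was counted in both the skeletal muscle and the arrector pili list. Pericyte markers summed to 204 and 192 in DS, 155 and 166 in DP and 829 and 627 in DF. Ndufa4l2 alone took 31.2 and 31.6 of that sum in DS, 22.4 and 40.5 in DP and 789.5 and 588 in DF, so the higher sum in DF rests on this gene. The other markers together were lower in DF than in DS or DP, but they did not move as a group. Mcam, with 101 and 90.2 in DS, 0.84 and 0.69 in DP and 1.2 and 1.41 in DF, and Cspg4 were large members of the follicle sums. Kcnj8, Abcc9 and Des were called lower in both follicle populations, calls that were lost without DF replicate 1. Without DF replicate 2 or with a pseudocount of 0.1, Kcnj8 and Des lost theirs too. Abcc9 and Des lost theirs as deposited, Abcc9 also without DP replicate 2, and Des also without DS replicate 2 or DP replicate 1.

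**Figure D3:**
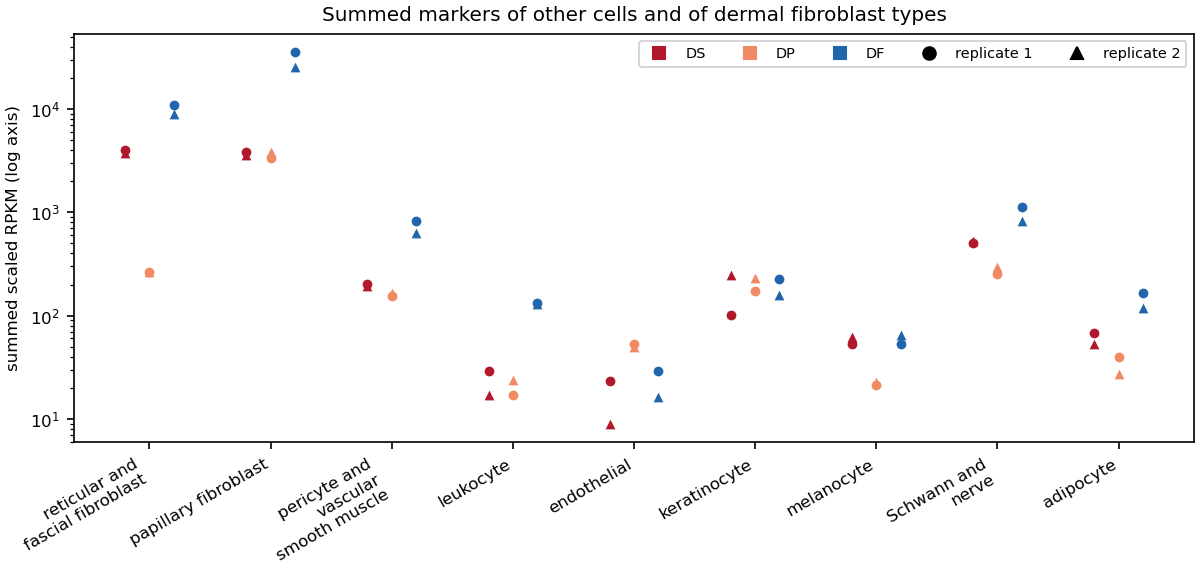
Points give the summed scaled RPKM of each marker list in each library on a log axis, with DS left of DP and DP left of DF. Leukocyte sums were 16.8 to 29.3 in follicle libraries and 129 to 133 in DF, whereas keratinocyte sums, from 101 to 249.5 in follicle libraries and 160 to 228 in DF, overlapped.

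Housekeeping and positional genes gave few shared calls. By the shared rule no gene was called in either direction among 77 cytosolic ribosomal protein genes, 57 oxidative phosphorylation genes, 21 Hox genes, 23 cholesterol synthesis genes and 22 keratinocyte markers. For the follicle mean minus DF alone, limma called 1 ribosomal protein gene, 1 oxidative phosphorylation gene, 2 cholesterol genes and none of the Hox or keratinocyte genes. At an unadjusted p under 0.05 for that difference there were 29 ribosomal protein genes, 13 oxidative phosphorylation genes, 8 Hox genes, 13 cholesterol genes and 3 keratinocyte genes. Medians were -0.23 for ribosomal proteins, 0.02 for oxidative phosphorylation, 0.26 for Hox and 0.55 for cholesterol synthesis. As deposited 11 cholesterol genes and 4 Hox genes were called higher, and the ribosomal median became 0.51. Of 24 cell cycle genes Cdkn2c and Tyms were lower in both, calls that were lost as deposited and without DF replicate 1, Cdkn2c also without DF replicate 2. Of 36 immediate early and stress genes 1 was called, the small heat shock gene Hspb1, with 366 and 456 scaled RPKM in DS, 460.0 and 546 in DP and 97.3 and 48 in DF. Of 22 glycolysis genes the lactate dehydrogenase subunit Ldhb was higher, with 8.05 and 14.5 in DS, 28.6 and 22.4 in DP and 0 and 1.29 in DF, and the pyruvate dehydrogenase kinase Pdk1 lower, with 2.51 and 1.84 in DS, 1.47 and 1.27 in DP and 7.62 and 8.88 in DF.

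**Figure D4:**
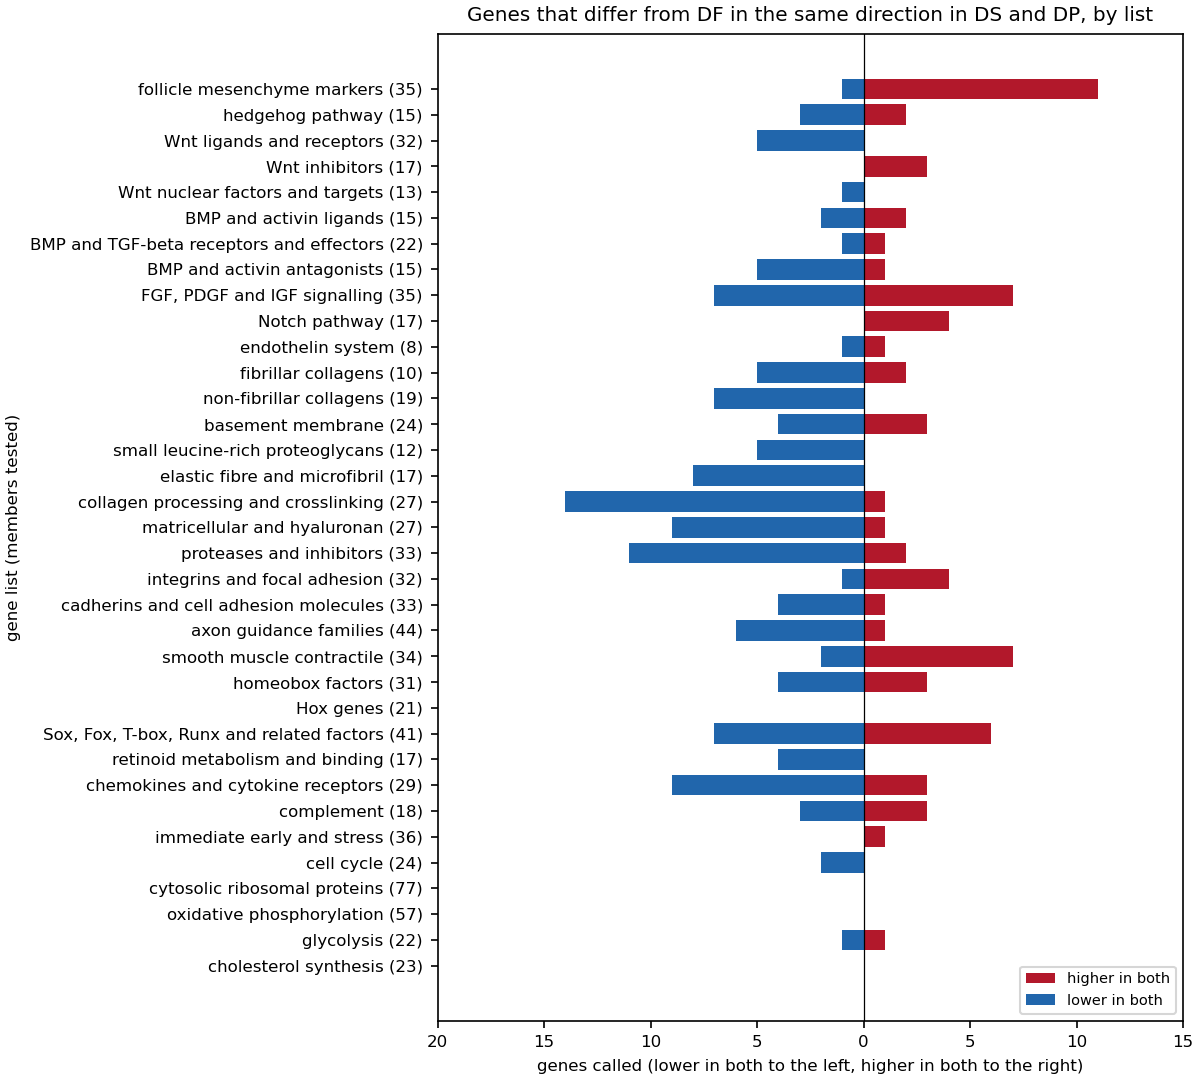
Bars give, for each pathway list with its number of tested members in brackets, the genes lower in both follicle populations (left) and higher in both (right). Matrix lists lie mostly to the left, with 14 of 27 collagen processing genes lower, and follicle mesenchyme markers mostly to the right, with 11 of 35 higher.

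A shared direction did not mean an equal level in sheath and papilla. Among the 369 higher genes 67 were also higher in DS than in DP and 66 lower, which is 36.0% with a call, and among the 968 lower genes 135 were higher in DS and 75 lower, which is 21.7%. Over all genes tested 21.3% had a DS minus DP call, 11.5% with DS higher and 9.81% with DS lower. These shares use the libraries that chose the genes and are descriptions. DS and DP differed by under 0.5 on the log2 scale for 146 of the higher and 526 of the lower genes. Since 1 is added before the log, a gene near 0 in all 4 follicle libraries shows almost no DS minus DP difference. Every follicle library was under 1 scaled RPKM in 122 lower genes with a DF mean of at least 5. The counts of the lower set are therefore no sign that DS and DP agree more there. Ednrb, Dcn and Cd200 were among the shared genes with wide gaps, and Vim and Myo10 among those with nearly none. Cib3 and Fcgr3 also had nearly none, but both were near 0 in all 4 follicle libraries. Cib3, a calcium- and integrin-binding protein, had 0.0505 and 0 scaled RPKM in DS, 0.0797 and 0.0341 in DP and 57.5 and 54.5 in DF. When the 4 follicle libraries were fitted with 1 mean, so that the gap between DS and DP counted as spread, 206 genes were higher and 712 lower. Of the 189 genes picked for naming 45 lost their call in that fit, among them Cd200, Ednrb, Tbx18, Wif1, Bmp3, Nog, Fgf18, Serpine2, Lamc3, Tpm2, Cnn2, Actn1, Dcn, Sparc, Fn1, Creb3l1, Osr2 and Tgfb2.

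**Figure D5:**
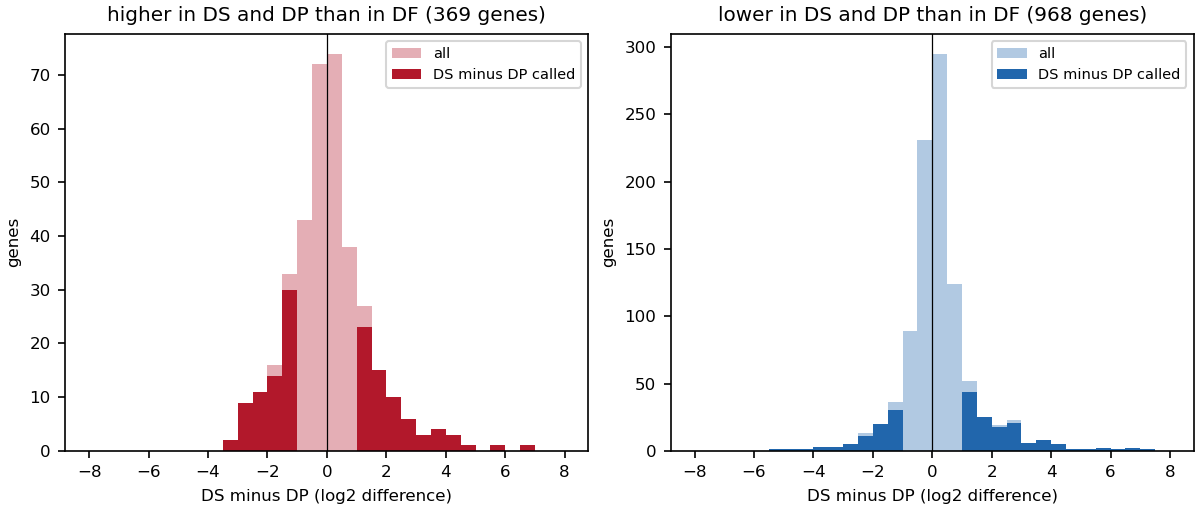
Histograms of DS minus DP on the log2 scale for the 369 genes higher in both follicle populations (left panel) and the 968 lower in both (right panel), with genes in darker colour where DS minus DP was called. Within 0.5 of 0 lie 146 of the 369 higher genes and 526 of the 968 lower genes, including genes near 0 in every follicle library.

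In 236 genes the 2 follicle populations differed from DF in opposite directions, 118 with DS above and DP below and 118 with DP above and DS below. Each had to be called against DF in both populations, so a wide DS minus DP gap follows from the selection. Ogn, a small proteoglycan, had 466 and 422 scaled RPKM in DS, 0.415 and 0.681 in DP and 158 and 101 in DF. Mgp, matrix Gla protein, had 1989 and 1643 in DS, 10.3 and 5.01 in DP and 151 and 229.6 in DF. Ntrk3, a neurotrophin receptor, had 939 and 761 in DS, 4.48 and 5.37 in DP and 56.5 and 73.3 in DF. On the other side Crabp1 differed by -10.16 in DS minus DP. Notum, an enzyme that inactivates Wnt ligands, had 0.0781 and 0.129 in DS, 287 and 347 in DP and 8.27 and 9.71 in DF. Enpp2, the lysophosphatidic acid producing enzyme autotaxin, had 3.88 and 3.41 in DS, 919 and 1045 in DP and 60.7 and 74 in DF. For these genes DF lay between sheath and papilla, and the average over the follicle libraries says little, for example -0.01 ± 0.13 for Enpp2 (SE; limma adjusted p = 0.958). Trps1, a zinc finger factor, had 22.8 and 19 in DS, 245 and 214 in DP and 47 and 56.4 in DF, and the endothelin A receptor Ednra had 232 and 203 in DS, 17.8 and 17.8 in DP and 27.5 and 22.4 in DF. Trps1 stood out in DP and Ednra in DS. Ednra is not among the 236 genes, since its DP minus DF of -0.46 was not called.

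Promoter sequence was compared between shared genes and all tested protein-coding genes with an entry in the RefSeq table, 276 higher, 678 lower and 10661 in all. The CArG box, the site named for serum response factor, was found in 11 higher promoters (3.99%), 6 lower promoters (0.885%) and 141 of all promoters (1.32%). The AP-1 site TGANTCA was found in 11 higher (3.99%), 59 lower (8.7%) and 547 of all (5.13%). The others were close to the share in all promoters, from the Runx core TGTGGT with 9.42% of higher, 10.8% of lower and 12.0% of all, to the Gli core CCACCCA in 27 higher, 68 lower and 1020 of all promoters. The Lef/Tcf site ATCAAAG had 3.26, 2.95 and 2.56%, the homeodomain site TAATTA 2.9, 2.65 and 2.65%, TATAAA 7.25, 9.44 and 7.77%, CCAAT 35.5, 36.0 and 38.8%, and GGGCGG 66.7, 59.0 and 63.4%, each for higher, lower and all promoters. Both strands were searched, no test was made of these shares, and a match is not a binding site.

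Promoters of members described above show where these letters lie, in the 250 bases before the start. They were picked after the values were seen. Cnn2 (chr10:79988350-79988599, plus strand) and Fermt2 (chr14:45530066-45530315, minus strand), both higher in the follicle, have a CArG box in capitals.
Cnn2: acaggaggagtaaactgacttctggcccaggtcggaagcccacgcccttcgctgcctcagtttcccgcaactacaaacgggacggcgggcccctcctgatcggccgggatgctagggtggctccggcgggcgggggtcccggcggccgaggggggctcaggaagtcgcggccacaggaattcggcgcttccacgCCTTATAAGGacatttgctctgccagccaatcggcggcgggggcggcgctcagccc
Fermt2: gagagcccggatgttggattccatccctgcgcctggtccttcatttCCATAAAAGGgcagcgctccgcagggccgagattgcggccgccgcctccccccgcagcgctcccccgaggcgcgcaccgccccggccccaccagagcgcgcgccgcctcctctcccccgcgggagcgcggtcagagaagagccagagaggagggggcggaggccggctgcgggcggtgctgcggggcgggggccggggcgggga

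Tnxb (chr17:34670285-34670534, plus strand) and Igf1 (chr10:87860861-87861110, plus strand), both lower in the follicle, have an AP-1 site in capitals.
Tnxb: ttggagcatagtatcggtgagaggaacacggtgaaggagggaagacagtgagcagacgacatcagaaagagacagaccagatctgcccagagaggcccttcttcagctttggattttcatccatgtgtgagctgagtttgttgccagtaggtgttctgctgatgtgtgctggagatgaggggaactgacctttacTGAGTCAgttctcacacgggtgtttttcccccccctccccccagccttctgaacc
Igf1: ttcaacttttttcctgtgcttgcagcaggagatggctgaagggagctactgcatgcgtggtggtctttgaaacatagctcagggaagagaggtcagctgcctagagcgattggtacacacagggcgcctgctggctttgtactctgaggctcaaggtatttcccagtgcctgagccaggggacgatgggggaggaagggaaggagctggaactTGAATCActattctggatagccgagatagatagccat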

How the data were processed

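Messenger RNA of sorted DS, DP and DF cells was amplified from 6 ng per sample with a NuGEN Ovation kit and sequenced on an Illumina instrument, per the labels' protocols and the series' design text. The authors deposited RPKM per gene, 1 column per library, with no pooling of replicates seen in the columns. The submitters' processing notes list Salmon 1.9.0, DESeq2 1.28.1 and the build GRCm39, with no role or order, and no read totals, filters, strand setting or annotation are given there. Genes with near-identical copies or overlapping neighbours are therefore uncertain.

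RPKM were divided by median-ratio factors from the 15349 genes above 0 in all 6 libraries, filtered at 1 RPKM in at least 2 libraries (14664 of 24529 genes), and taken as log2(scaled RPKM + 1), which understates differences of low genes. A gene that passes the filter through DF alone can only be called lower. limma 3.58.1 under R 4.3.3 fitted a mean per population over all 6 libraries, with a trended prior (3 residual and 2.56 prior degrees of freedom). Tests were two-sided with Benjamini-Hochberg adjustment over all genes tested. A call between 2 populations needs an adjusted p under 0.05 and a log2 difference of at least 1. "As deposited" means without the factors. The fit was tested on simulated data.

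The 50 gene lists, the rule and the genes named were chosen with earlier results of these data known. Genes named are the 15 largest shared differences per direction with at least 5 scaled RPKM in the higher populations, a set of 26 genes, up to 4 called genes per list and direction and the 6 widest opposite genes per direction, leaving out small RNA and unnamed genes. Not every gene so picked is described. Sequences are RefSeq's on GRCm38.p6, an earlier build than that of the notes, matched by gene ID for 10661 of 13309 tested protein-coding genes, and no other coordinates are given. Alternatives were another scaling, pseudocount, filter, prior and grouping, a replicate block and leaving out each library. Whether replicate numbers pair the libraries is not given, and the main fit did not use them. Since RPKM carry no counts, neither counting intervals nor a floor for zeros could be set.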

Additional observations from a re-analysis of the deposited data

Results flagged for a closer look

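Genes were singled out when sheath and papilla lay on opposite sides of DF, each called against it. A wide DS minus DP difference follows from that selection on the same libraries and is given as a description. There were 118 genes higher in DS and lower in DP than DF, and 118 genes higher in DP and lower in DS. On the DS side the widest DS minus DP differences on the log2 scale were 8.17 for Ogn, 7.78 for Mgp, 7.75 for the carboxypeptidase-like gene Cpxm2, 7.60 for the small proteoglycan gene Prelp, 7.16 for Ntrk3 and 7.05 for Fgl2, which encodes a fibrinogen-like protein. On the DP side they were -10.16 for Crabp1, -8.20 for the prolactin receptor gene Prlr, -8.17 for Notum, -7.74 for the ion cotransporter gene Slc12a1, -7.72 for Enpp2 and -7.60 for Rspo4, an R-spondin.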

How the results depend on the processing

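The genes called higher in both numbered 369, and 1554 with RPKM as deposited, 785 with the same sum without small RNA genes, 206 with the 4 follicle libraries as 1 group and 1341 with no fold minimum. The 968 lower genes became 519 as deposited and 1952 with no fold minimum. Opposite genes numbered 236, and 430 with no fold minimum, and shared genes with a DS minus DP call 343, and 1311 with no fold minimum. Leaving out 1 library gave 332 to 403 higher, 811 to 1020 lower and 173 to 208 opposite genes, and 273 to 370 with a DS minus DP call. Without DF replicate 1, 273 of the 369 and 770 of the 968 genes kept their call. The other alternatives were within 1.5 times of these counts. The libraries carry replicate numbers 1 and 2. Deviations of same-numbered libraries correlated at -0.033 (DS and DP), -0.067 (DS and DF) and -0.049 (DP and DF), so no large shared replicate effect was seen. The labels do not say whether same-numbered libraries share animals or a sort day, which these correlations cannot decide. With a replicate block 364 genes were higher and 957 lower, 224 were opposite and 332 had a DS minus DP call, and none of the 189 genes picked changed its call. Over all alternatives 121 of those 189 kept theirs. The follicle mean minus DF changed sign only in genes that went opposite ways in DS and DP. Enpp2 was at 0.71 as deposited, 0.44 with the same sum, and from -0.15 to 0.13 with 1 library left out (0.02 without DS replicate 2, 0.03 without DP replicate 1). Crabp1 was at 0.57 as deposited, 0.33 with the same sum, and from -0.44 to 0.19 with 1 library left out (0.05 without DS replicate 1). With a pseudocount of 0.1, Hhip was at -0.31, Prlr at -0.64, Notum at -0.18 and Rspo4 at -1.02. Mgp was at 0.11 as deposited. With 1 library left out, Rspo4 ran from -0.28 to 0.38 (-0.11 without DP replicate 2), Ntrk3 from -0.07 to 0.30 and Fgl2 from -0.04 to 0.63. The cause of these changes was not tested. With 2 libraries per population and unknown read totals, values under 1 scaled RPKM are the least certain.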
